A study of Mus musculus with 14 samples.

Results

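Collagen messages were followed in 14 transplanted mouse hearts, each measured on 1 MG-U74Av2 oligonucleotide array. The 10 genes described here are Col1a1, Col1a2, Col3a1 and Col5a2 of the fibrillar collagens, Col4a1 and Col4a2 of the basement membrane network, Col6a1, Col8a1, Col15a1 and Col18a1. They were chosen by name, with earlier results of these data known. The platform annotation gave them 19 of the 12422 probe sets that are not controls, 10 of 8251 annotated genes. All 19 probe sets lay above the floor used for dim signals often enough to be tested. Other collagens on the array, and the genes that build, bind or cut collagen, are given beside them as lists.

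The hearts fell into 5 groups. Rejecting allografts at day 7 (3 hearts) were Balb/c hearts in C57/BL6 recipients, for which the labels name no antibody. Tolerizing allografts at day 70 (3 hearts) and at day 7 (3 hearts) were the same strain pair with a monoclonal antibody against CD80/86, the costimulatory ligands that T cells read on antigen-presenting cells. Isografts at day 70 (2 hearts) and at day 7 (3 hearts) were C57/BL6 hearts in C57/BL6 recipients. All 14 hearts were transplanted, no unoperated heart was analysed here, and allograft and isograft hearts also differed in donor strain, so that strain and immune response cannot be told apart between them. The labels do not say whether the hearts of a group came from separate operations, so p-values measure the spread between these arrays.

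Fibrillar collagens form the load-bearing fibres between heart muscle cells, and cardiac fibroblasts make most of them, in larger amounts after injury. Collagen IV forms the sheet-like network of the basement membrane that wraps each cardiomyocyte and lines each capillary. Collagen VI forms beaded filaments next to that membrane, collagen VIII is a short-chain collagen of vessel walls, and collagens XV and XVIII are multiplexins, which carry sugar chains and sit where the basement membrane meets the surrounding matrix.

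Signals are deposited linear intensities, with nearly the same trimmed mean on every array. A probe set's signal is compared between arrays and never with another probe set. Where a gene had several probe sets, its brightest stands for it. A gene passed the test in a comparison when limma gave it an adjusted p under 0.05 over all 10395 probe sets tested. In bulk tissue, fewer cells of a type and less RNA per cell cannot be told apart. The summed signal of 9 cardiomyocyte markers was 28185.9 to 40220.2 in tolerizing and 36462.1 to 44685.8 in isograft hearts at day 70. At day 7 it was 4133.5 to 20162 in rejecting, 20090.6 to 31163.4 in tolerizing and 30515.8 to 45939.9 in isograft hearts. The sum of 11 leukocyte markers was 8110.5 to 8907.1 in rejecting hearts and 2792.1 to 2998.8 in isografts at day 7. All 42 markers found on the array, cardiomyocyte and leukocyte markers included, exceeded the floor on at least 1 array. The 5 arrays with the lowest accession numbers gave lower 18S signals than the other 9. They hold replicate 3 of the 4 groups of 3 hearts and replicate 2 of the day-70 isografts, and are called the first accession run below. The labels do not say what the run stands for.

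**Figure D1:**
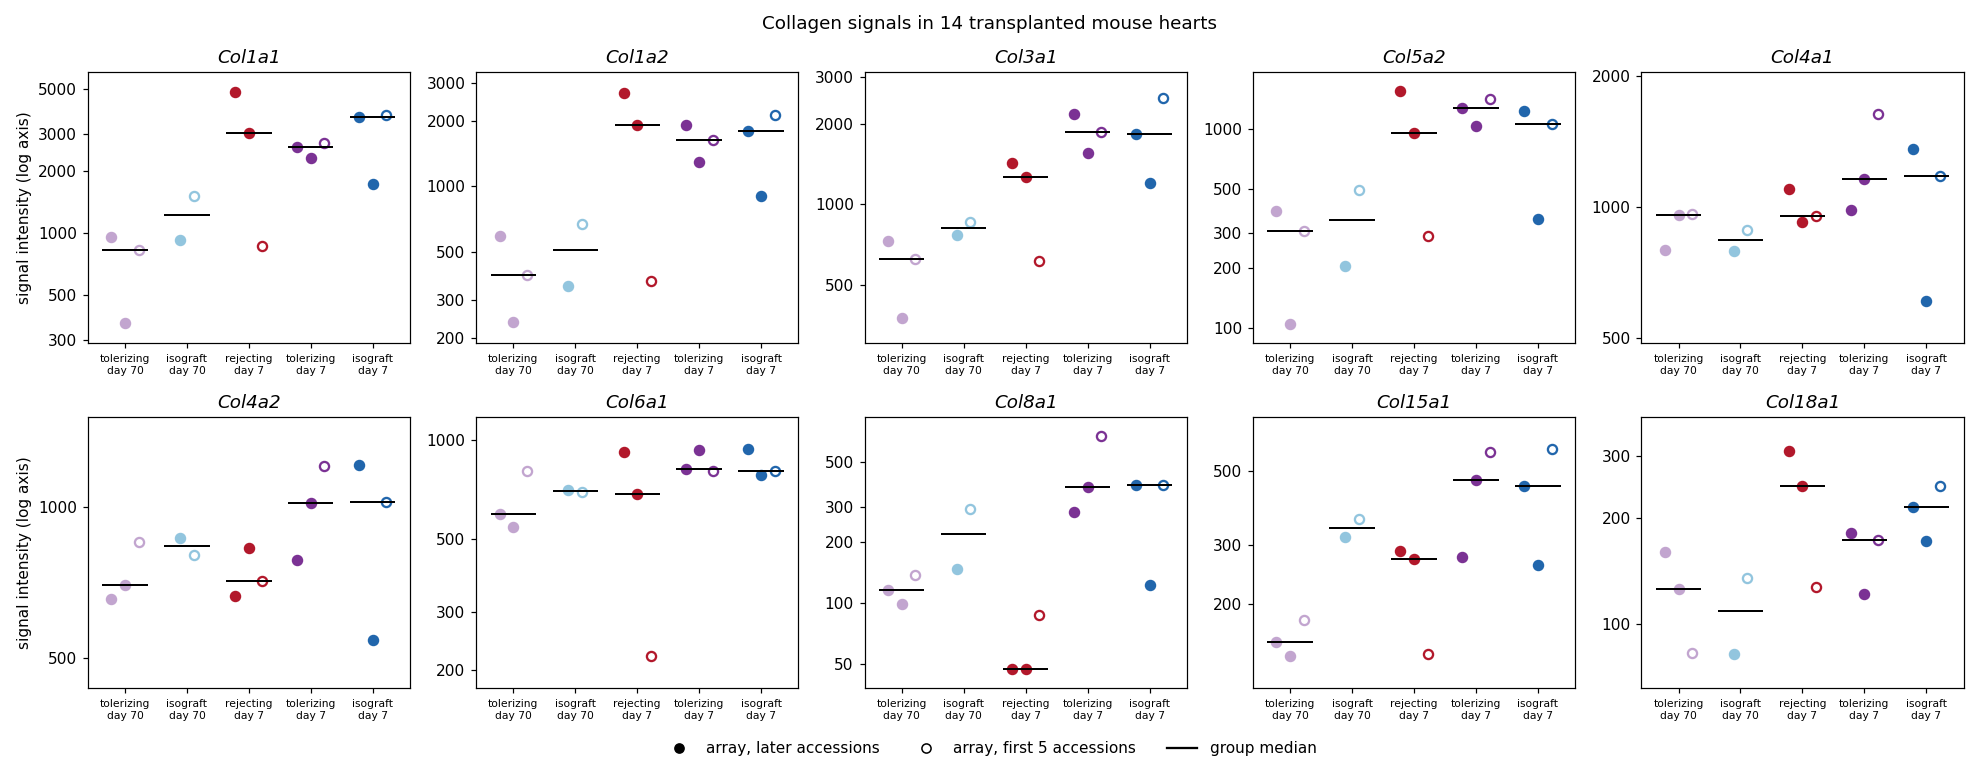
Signal intensity (log axis) of the 10 collagen genes on each of 14 arrays, by the gene's brightest probe set. Points are arrays, open for the 5 arrays of the first accession run, and bars are group medians. Col8a1 lay at 47.4 to 87.5 in the rejecting hearts, below every other array, and the 4 fibrillar genes lay low in both day-70 groups.

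The fibrillar genes had high signals in most day-7 hearts and low signals in the day-70 hearts of both kinds. Col1a1 and Col1a2 encode the chains of collagen I, the main collagen of the heart's interstitium. Col1a1 (probe set 94305_at) gave 952.4, 362.7 and 824.2 in tolerizing hearts at day 70, and 924.6 and 1514.1 in day-70 isografts. At day 7 it gave 4827.5, 3052.8 and 857.2 in rejecting hearts, 2595.9, 2297.7 and 2720.8 in tolerizing hearts, and 3650.6, 1731.7 and 3735.6 in isografts. All 5 day-70 hearts lay below all 6 tolerizing and isograft hearts of day 7, while the third rejecting heart lay in the range of day 70.

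Col1a2 (101130_at) gave 592.3, 236.8 and 390.3 in tolerizing and 348.5 and 667.9 in isograft hearts at day 70. The day-7 values were 2686.7, 1904.9 and 368.7 in rejecting hearts, 1920.3, 1287.1 and 1632.1 in tolerizing hearts, and 1793.8, 901.3 and 2117.8 in isografts. The order of the arrays was close to that of its partner chain. A dimmer probe set of Col1a2 (161156_r_at), of a class the array's maker marks as less specific, stayed between 356.2 and 775.1 on all arrays and did not follow 101130_at. Its log2 differences of day 70 against day 7 were 0.03 in tolerizing hearts and 0.21 in isografts, so it showed no fall over time. Col1a1's dimmer probe set (103709_at) ran from 257.7 to 1100 and was lowest in the same tolerizing day-70 heart, replicate 2. It showed a smaller fall over time than 94305_at. Its log2 differences were -0.93 in tolerizing hearts and -0.36 in isografts, against -1.94 and -1.28 by 94305_at.

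Col3a1 encodes collagen III, which co-assembles with collagen I in thinner, more compliant fibres. Its brightest probe set (98331_at) gave 730.7, 376.8 and 626 in tolerizing and 768.2 and 858.4 in isograft hearts at day 70. On day 7 Col3a1 stood at 1430.2, 1270.6 and 616 in rejecting hearts, 2187.7, 1560.1 and 1864.5 in tolerizing hearts, and 1840.1, 1200.8 and 2512.8 in isografts. At day 7 every rejecting heart lay below every tolerizing heart by this probe set. By the dimmer 161984_f_at the highest rejecting value was 292.5 and the lowest tolerizing value 267.4, and by 102990_at 201.3 and 173.2, so there the groups overlapped. Both dimmer probe sets of Col3a1 also had lower means in the day-70 groups than in each day-7 group with the same graft.

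Col5a2 encodes a chain of collagen V, which starts fibrils and sets their width. It gave 388.4, 104.7 and 306.9 in tolerizing and 204.4 and 494.5 in isograft hearts at day 70 (92567_at). On day 7 the signal was 1540.3, 949.6 and 289.7 in rejecting hearts, 1268.6, 1033 and 1400.5 in tolerizing hearts, and 1223.1, 351.2 and 1056.3 in isografts. The low isograft at day 7 was replicate 2, which overlapped with the day-70 isografts.

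Promoter windows, from 250 bases before to 50 bases after the annotated start, were found in the RefSeq table (build GRCm38.p6) for 8 of the 10 genes. Those of Col1a2 (chr6:4505368-4505667, plus strand) and Col3a1 (chr1:45311288-45311587, plus strand) are shown because both genes belong to the fibrillar set that shared an array profile. Capitals mark matches, on either strand, to a CCAAT box (CCAAT), a GC box (GGGCGG) or a TATA box (TATAAA).
Col1a2: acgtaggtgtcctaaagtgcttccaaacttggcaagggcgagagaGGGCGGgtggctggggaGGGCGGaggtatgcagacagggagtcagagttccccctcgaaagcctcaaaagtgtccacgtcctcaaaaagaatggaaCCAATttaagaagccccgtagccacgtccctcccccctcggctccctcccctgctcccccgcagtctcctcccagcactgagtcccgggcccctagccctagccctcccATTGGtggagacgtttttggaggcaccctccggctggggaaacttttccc
Col3a1: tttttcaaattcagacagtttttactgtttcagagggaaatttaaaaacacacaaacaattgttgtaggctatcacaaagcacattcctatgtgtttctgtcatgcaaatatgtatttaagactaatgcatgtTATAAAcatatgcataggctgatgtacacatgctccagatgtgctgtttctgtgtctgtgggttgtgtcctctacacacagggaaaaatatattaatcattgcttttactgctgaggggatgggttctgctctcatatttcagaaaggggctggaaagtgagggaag
The Col1a2 window held 2 CCAAT and 2 GC box matches and no TATA box match, at 61% GC. The Col3a1 window held 1 TATA box match and neither of the others, at 37.7% GC, against a median of 52.7% over all windows. Of the 32851 windows of that length in the table, 37.4% held a CCAAT match, 35.7% a GC box match and 13.6% a TATA box match. The pair had none of these motifs in common. A match describes letters and is not a binding site.

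The collagen IV genes differed less between groups, with group means of 838.4 to 1261.7 for Col4a1 and 736.1 to 1004.8 for Col4a2. Col4a1 (101093_at) gave 795, 958.8 and 962.3 in tolerizing and 791.7 and 885.1 in isograft hearts at day 70. The day-7 hearts gave 1099.6, 925.2 and 954.6 in rejecting hearts, 986.1, 1161 and 1637.9 in tolerizing hearts, and 1357, 606.6 and 1178.6 in isografts. The lowest of the 14 values, 606.6, came from the second day-7 isograft.

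Col4a2 (101039_at) encodes the chain that joins the Col4a1 chain in the same triple helix. It gave 655.5, 700.3 and 852.4 in tolerizing and 870.1 and 802.5 in isograft hearts at day 70. Its day-7 signals were 666.8, 829.8 and 712 in rejecting hearts, 784.1, 1019.7 and 1210.6 in tolerizing hearts, and 1213.6, 544.6 and 1026 in isografts. The second day-7 isograft was again the lowest.

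The pair is transcribed in opposite directions from a shared stretch of DNA, which is why its windows are shown. The window of Col4a1 is chr8:11312777-11313076 on the minus strand and that of Col4a2 is chr8:11312555-11312854 on the plus strand (GRCm38.p6). Capitals mark the 78 bases that both windows hold, chr8:11312777-11312854, read on opposite strands.
Col4a1: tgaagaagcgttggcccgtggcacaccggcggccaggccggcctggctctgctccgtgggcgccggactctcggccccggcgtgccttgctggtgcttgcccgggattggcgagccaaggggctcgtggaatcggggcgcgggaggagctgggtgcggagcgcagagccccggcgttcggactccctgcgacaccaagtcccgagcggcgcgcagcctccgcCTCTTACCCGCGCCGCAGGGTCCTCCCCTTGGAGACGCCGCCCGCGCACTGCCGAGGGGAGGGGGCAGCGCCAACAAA
Col4a2: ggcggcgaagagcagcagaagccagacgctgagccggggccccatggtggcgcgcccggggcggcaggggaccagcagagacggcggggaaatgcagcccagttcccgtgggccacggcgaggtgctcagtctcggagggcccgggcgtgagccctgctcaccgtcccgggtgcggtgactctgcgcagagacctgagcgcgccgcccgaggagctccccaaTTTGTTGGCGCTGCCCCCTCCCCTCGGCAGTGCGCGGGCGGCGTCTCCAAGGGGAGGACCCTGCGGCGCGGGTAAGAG
At 74% and 73.7% GC, both windows were richer in GC than the median window. The Col4a1 window held 1 CCAAT match and 1 GC box match, and that of Col4a2 1 and 3, with no TATA box match in either. The GC box match of Col4a1 lies in the shared bases and is also 1 of the 3 of Col4a2, read on the opposite strand.

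Col6a1, a chain of collagen VI, gave 594.7, 544.2 and 800.7 in tolerizing and 704.2 and 692.7 in isograft hearts at day 70 (95493_at). Col6a1 at day 7 stood at 914.2, 683.6 and 220.1 in rejecting hearts, 813, 930 and 802.4 in tolerizing hearts, and 939, 780.9 and 804.5 in isografts. Apart from the third rejecting heart, all arrays lay between 544.2 and 939. A dimmer probe set, 162459_f_at, was also lowest in that heart, at 40.8.

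Col8a1, which encodes a chain of the short-chain collagen VIII, separated the rejecting hearts from every other heart. It gave 47.4, 47.5 and 87.5 in rejecting hearts at day 7 (100308_at). At day 70 it gave 115.9, 99.4 and 137.6 in tolerizing hearts and 148.1 and 294.7 in isografts. The other day-7 hearts gave 282.9, 378.8 and 671.8 (tolerizing) and 383.6, 122.9 and 387.1 (isograft). Every rejecting value lay below the lowest value of the other 4 groups, 99.4. It was also the only one of the 10 genes for which the third rejecting heart was the highest of its group.

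The Col8a1 window (chr16:57754688-57754987, minus strand, GRCm38.p6) is shown because this gene alone passed a test. Capitals mark its 4 matches to the GC box, all read on the opposite strand as CCGCCC, and it held no CCAAT or TATA box match.
Col8a1: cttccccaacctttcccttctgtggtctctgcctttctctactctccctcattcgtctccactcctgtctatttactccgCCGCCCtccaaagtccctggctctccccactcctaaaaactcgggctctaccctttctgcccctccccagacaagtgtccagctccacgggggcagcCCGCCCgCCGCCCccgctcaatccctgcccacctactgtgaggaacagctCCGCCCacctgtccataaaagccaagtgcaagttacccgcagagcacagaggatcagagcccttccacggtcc

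Col15a1 encodes a multiplexin found near the basement membranes of muscle and capillaries. It gave 153.9, 140.2 and 180.1 in tolerizing and 318.4 and 360.8 in isograft hearts at day 70 (99637_at). Day-7 values were 288.5, 272.8 and 142.1 in rejecting hearts, 277.7, 471.8 and 570.8 in tolerizing hearts, and 451.8, 262 and 583 in isografts. The tolerizing hearts at day 70 lay below all isografts of either day and, apart from the third rejecting heart, below all other hearts.

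Col18a1 encodes the other multiplexin, whose cleaved end is endostatin, an inhibitor of vessel growth. It gave 159.4, 125.4 and 82.7 in tolerizing and 81.9 and 135 in isograft hearts at day 70 (99638_at). For day 7 the values were 309.3, 245.6 and 126.6 in rejecting hearts, 181.3, 121.7 and 172.2 in tolerizing hearts, and 214, 171.4 and 245.1 in isografts. Its 4 dimmer probe sets lay between 2 and 65.9, close to the floor of 11, and were not read further.

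Between rejecting hearts and isografts at day 7, 1 of the 10 collagen genes passed the test, against 17.7% of all probe sets tested in either direction. That gene was Col8a1, which was 4.52-fold lower in rejecting hearts (log2 -2.18, SE 0.45, adjusted p = 0.00467 by limma). It averaged 60.8 ± 23.1 in rejecting hearts and 297.9 ± 151.5 in isografts (SD, n = 3 each). It was also the single gene of the 10 with every rejecting array below every isograft array, against 15.4% of all probe sets. The share of the 10 genes called was thus no higher than that of the array as a whole. Their median log2 difference was -0.29, against 0.04 over all probe sets.

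The fibrillar genes did not pass in this comparison, and their values moved with single arrays. Their log2 differences were -0.30 (SE 0.55) for Col1a1, -0.29 (SE 0.60) for Col1a2, -0.77 (SE 0.35) for Col3a1 and -0.03 (SE 0.64) for Col5a2. Without the third rejecting heart those of Col1a1, Col1a2 and Col5a2 were 0.42, 0.59 and 0.65, and that of Col3a1 was -0.39. Without the first rejecting heart Col1a1 stood at -0.83, Col1a2 at -0.85 and Col5a2 at -0.55, and without the second day-7 isograft at -0.67, -0.66 and -0.60. Within the first accession run, which holds that heart and 1 isograft, Col1a1 differed by -2.12 and Col1a2 by -2.52. Within the second run they differed by 0.61 and 0.83, so the direction was not the same in the 2 runs. For Col8a1 both runs gave similar values, -2.15 (first) and -2.19 (second). The third rejecting heart had a cardiomyocyte marker sum of 20162, against 4133.5 and 5687.2 in the other rejecting hearts. Its sum of mural (vessel wall) cell markers was lower, at 714 against 3067.7 and 1893.2. Its fibroblast marker sum was higher, at 1082 against 936.2 and 782.4. The part these play in its collagen signals was not tested.

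Col4a1 and Col4a2 gave log2 differences of 0.00 (95% confidence interval -0.59 to 0.59) and -0.26 (-0.83 to 0.31). Neither passed. Col6a1 stood at -0.70 (SE 0.38) and, without the third rejecting heart, at -0.09. Col15a1 stood at -0.88 (SE 0.34, adjusted p = 0.0955). It moved with single arrays, to -1.20 without the second day-7 isograft, where it passed (adjusted p = 0.0346), and to -0.55 without the third rejecting heart. Within the accession runs Col15a1 stood at -2.04 (first) and -0.29 (second). Col18a1 stood at 0.03 (SE 0.34).

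Among the neighbouring lists, 6 of 14 genes of the basement membrane's other proteins were lower in rejecting hearts than in isografts at day 7 and 0 were higher. Over all probe sets 9.18% were lower and 8.54% higher. The median log2 difference of the 14 genes was -0.68, against 0.04 over all probe sets. Lama2, the laminin chain that anchors the muscle cell to its basement membrane, averaged 34.9 in rejecting hearts and 219.5 in isografts, 6.58-fold lower (adjusted p = 0.000442). Lamb2 was 3.56-fold, Lama5 4.997-fold and Lama4 1.73-fold lower. These laminin chains moved while Col4a1 and Col4a2 did not pass, and the difference between those genes was not tested. In the same hearts 9 of 9 cardiomyocyte markers, 5 of 8 endothelial and 4 of 8 fibroblast markers were lower, and their part in the laminin values was not tested.

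Among 16 other collagens tested, Col14a1, which decorates fibrils, was 3.93-fold lower in rejecting hearts (adjusted p = 0.0204), and Col2a1, a cartilage collagen, was higher at a dim signal (means of 24.8 and 9.13). Of 14 genes of collagen synthesis and crosslinking, 2 rose and 1 fell, a share close to the 17.7% of all probe sets called. P4ha1, a subunit of the enzyme that hydroxylates proline in procollagen, was 2.53-fold higher, and Ppib, which helps the chains fold, 1.68-fold higher. Pcolce, which speeds removal of the procollagen end piece, was 1.80-fold lower.

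Of 7 collagenases and inhibitors, Mmp13, an interstitial collagenase, was 3.90-fold higher, and Ctsk, a collagen-cutting cathepsin, and Timp2, an inhibitor, were 2.34-fold and 1.90-fold lower. Tgfbi, a matrix protein induced by TGF-beta, was the 1 gene of 11 in the TGF-beta list that passed, at 8.59-fold higher (adjusted p = 0.000886). For both lists the share to set beside these counts is the 17.7% of all probe sets that passed, in either direction. None of 5 collagen receptors passed, with 1 at an unadjusted p under 0.05 by limma, against 29.2% of all probe sets. Fibroblast markers did not move one way. Dpt, Tcf21, Fap and Pdgfrb were lower, Dpt by 10.9-fold, and Thy1, which T cells also carry, was 3.94-fold higher.

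**Figure D2:**
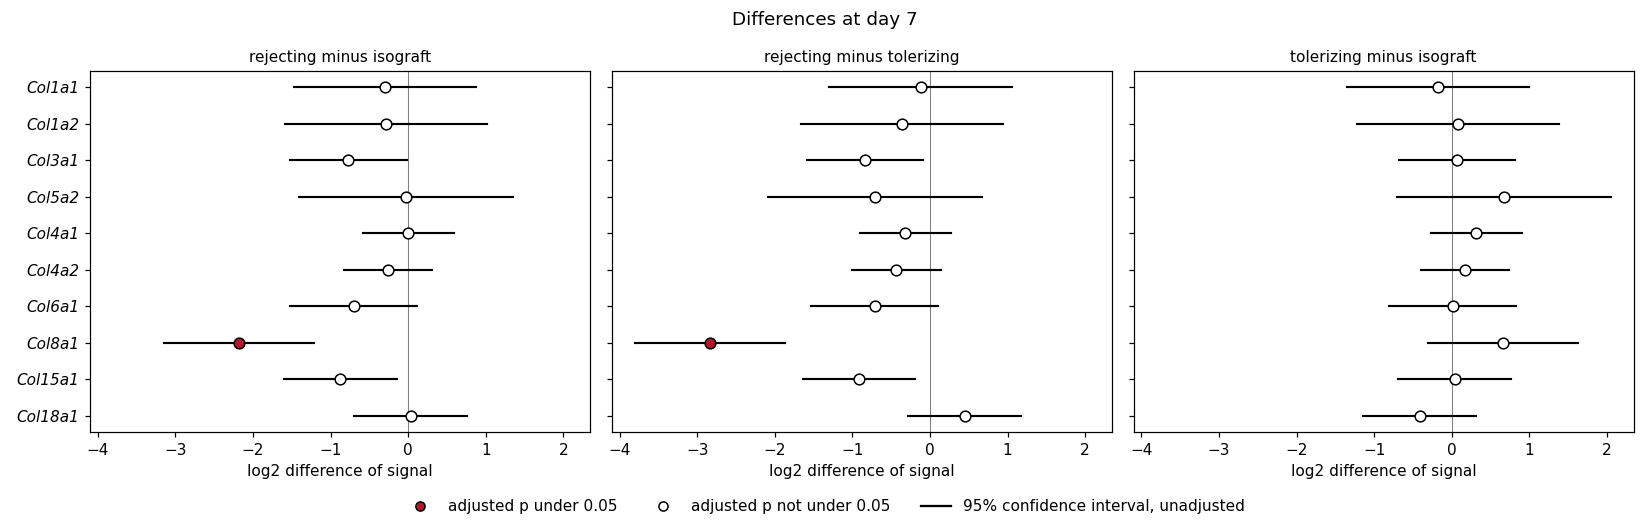
Log2 differences of the 10 collagen genes at day 7 with 95% confidence intervals, for rejecting minus isograft, rejecting minus tolerizing and tolerizing minus isograft hearts. Filled points passed at an adjusted p under 0.05. Col8a1 was the only filled point, at -2.18 and -2.84 in the 2 comparisons with rejecting hearts.

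Rejecting and tolerizing allografts at day 7 share donor and recipient strains and differ by the antibody. Col8a1 again was the 1 gene of the 10 that passed, against 1.41% of all probe sets. It was 7.15-fold lower in rejecting hearts (log2 -2.84, SE 0.45, adjusted p = 0.00711), with means of 60.8 ± 23.1 in rejecting and 444.5 ± 202.6 in tolerizing hearts (SD, n = 3 each). The difference was -2.94 within the first accession run and -2.79 within the second. When only the 6 arrays compared were fitted, it did not pass (adjusted p = 0.109), at the same difference. Every rejecting array lay below every tolerizing array for 2 of the 10 genes, Col8a1 and Col3a1, against 7.76% of all probe sets. For Col3a1 this held by its brightest probe set only.

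Col3a1 stood at -0.84 (SE 0.35, adjusted p = 0.27) and Col15a1 at -0.91 (SE 0.34, adjusted p = 0.209) in this comparison. Without the third rejecting heart they stood at -0.46 and -0.59. Col1a1 stood at -0.12 (SE 0.55), Col1a2 at -0.37 (SE 0.60) and Col5a2 at -0.70 (SE 0.64). Without that heart Col1a1 and Col1a2 turned to 0.60 and 0.51, and Col5a2 stood at -0.02. Within the second accession run alone these 3 genes stood at 0.65, 0.53 and 0.08. Across the 10 genes the median log2 difference was -0.57, against 0.06 over all probe sets. Of the neighbouring lists, Lama2 was 4.97-fold lower (adjusted p = 0.00711), Pcolce 2.17-fold lower and Tgfbi 5.16-fold higher in rejecting hearts. No gene of the other collagens, receptors or collagenases passed, with 2 of 16, 0 of 5 and 4 of 7 at an unadjusted p under 0.05 by limma, against 15.1% of all probe sets.

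Tolerizing hearts and isografts at day 7 did not differ detectably in any of the 10 genes. By limma 0 of 10 passed, against 1.69% of all probe sets, and 0 of 10 had an unadjusted p under 0.05, against 13%. No gene had every tolerizing array below every isograft array, a pattern that 11.6% of all probe sets showed. The log2 differences ran from -0.41 for Col18a1 to 0.67 for Col5a2, with a median of 0.07. The 95% confidence interval of Col1a1 was -1.36 to 0.99 and that of Col3a1 -0.68 to 0.81. With 3 hearts in each group, differences within these intervals remain compatible with the data. Of the neighbouring lists no gene passed by limma. At an unadjusted p under 0.05 there were 3 of 16 other collagens, 3 of 14 basement membrane, 2 of 11 TGF-beta and 0 of 14 synthesis genes, against 13%.

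At day 70 the tolerizing hearts had lower means than the isografts for 8 of the 10 genes, and none passed. By limma 0 of 10 passed, against 3.2% of all probe sets, and 1 of 10 had an unadjusted p under 0.05 (0 without the second day-70 isograft), against 15.4%. That gene was Col15a1, which averaged 158.1 ± 20.3 in tolerizing hearts (SD, n = 3) and 339.6 ± 30 in isografts (SD, n = 2). It stood at log2 -1.11 (SE 0.38, adjusted p = 0.151), at -1.002 within the first accession run and -1.12 within the second. Every tolerizing array lay below both isografts for 3 of the 10 genes, Col3a1, Col8a1 and Col15a1, against 22% of all probe sets. With 2 isografts that count is close to the background.

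Col8a1 stood at -0.84 (SE 0.50) and Col1a1 at -0.85 (SE 0.61) in this comparison. Of the leukocyte markers, 5 of 11 passed as higher in the tolerizing hearts of day 70, among them Laptm5 at 3.89-fold and Itgb2 at 4.61-fold. Over all probe sets 244 of 10395 did. No gene of the other collagens or of the synthesis, basement membrane, receptor, collagenase and TGF-beta lists passed by limma. At an unadjusted p under 0.05 by limma there were 2 of 16, 1 of 14, 4 of 14, 0 of 5, 2 of 7 and 1 of 11 genes of these lists, in that order. Over all probe sets the share was 15.4%.

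In tolerizing hearts at day 70 against day 7, the median log2 difference of the 10 genes was -1.58, against -0.04 over all probe sets. This median lay farther from 0 than in the other comparisons, while the largest difference of a single gene was that of Col8a1 between rejecting and tolerizing hearts. Every day-70 array lay below every day-7 array for 8 of the 10 genes, all but Col4a2 and Col18a1, against 8.61% of all probe sets. No gene of the 10 passed by limma, in a comparison where 0.0385% of all probe sets did (4 of 10395). At an unadjusted p under 0.05 there were 6 of the 10 genes, against 6.2% of all probe sets.

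Among all probe sets ordered by p, Col3a1 was number 18, Col15a1 42, Col8a1 47, Col5a2 67, Col1a1 85 and Col1a2 110. Col3a1 averaged 577.8 ± 181.8 at day 70 and 1870.8 ± 313.8 at day 7 (SD, n = 3 each), a log2 difference of -1.74 (SE 0.35, adjusted p = 0.129). Col5a2 differed most, at -2.40 (SE 0.64, adjusted p = 0.356), with Col1a2 at -2.07 (SE 0.60), Col1a1 at -1.94 (SE 0.55), Col8a1 at -1.84 (SE 0.45) and Col15a1 at -1.42 (SE 0.34). Col4a1, Col4a2, Col6a1 and Col18a1 stood between -0.45 and -0.40. The fibrillar genes were lower at day 70 within each accession run. In the first and second runs Col1a1 stood at -1.72 and -2.05, Col3a1 at -1.57 and -1.82 and Col5a2 at -2.19 and -2.51. The first run holds 1 tolerizing heart of each day, so its values carry no spread.

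With array weights, which give arrays that deviate from their group less influence, 5 of the 10 genes passed in this comparison. They were Col1a1, Col1a2, Col3a1, Col5a2 and Col15a1, and the whole array then had 41 calls in place of 4. The second tolerizing heart of day 70 was the lowest for all 4 fibrillar genes. Without it Col3a1 stood at -1.45 (adjusted p = 0.249) and Col1a1 at -1.51 (adjusted p = 0.947). By the rule used here the replicate numbers paired the tolerizing hearts of the 2 days, which also share accession runs number by number. With the replicate block 12 probe sets passed by limma and again 0 of the 10 genes, Col3a1 at adjusted p = 0.113 and Col8a1 at 0.127.

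Isografts differed over time in the same direction for the fibrillar genes. By limma 0 of 10 genes passed and 0% of all probe sets did, while 3 of 10 (Col3a1, Col1a2 and Col18a1) had an unadjusted p under 0.05, against 5.38%. Those 3 became 0 without the third day-7 isograft, and 6 without the second day-7 isograft. When all probe sets of a gene were averaged, they became 1, so the count also rested on the use of the brightest probe set. Every day-70 isograft lay below every day-7 isograft for 5 genes, Col1a1, Col1a2, Col3a1, Col6a1 and Col18a1, against 10% of all probe sets. The log2 differences were -1.64 (SE 0.68) for Col1a2, -1.28 (SE 0.61) for Col1a1, -1.27 (SE 0.72) for Col5a2, -1.12 (SE 0.39) for Col3a1 and -0.98 (SE 0.38) for Col18a1. Col8a1 and Col15a1 stood at -0.33 (SE 0.50) and -0.28 (SE 0.38). The median over the 10 genes was -0.66, against 0.02 over all probe sets.

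**Figure D3:**
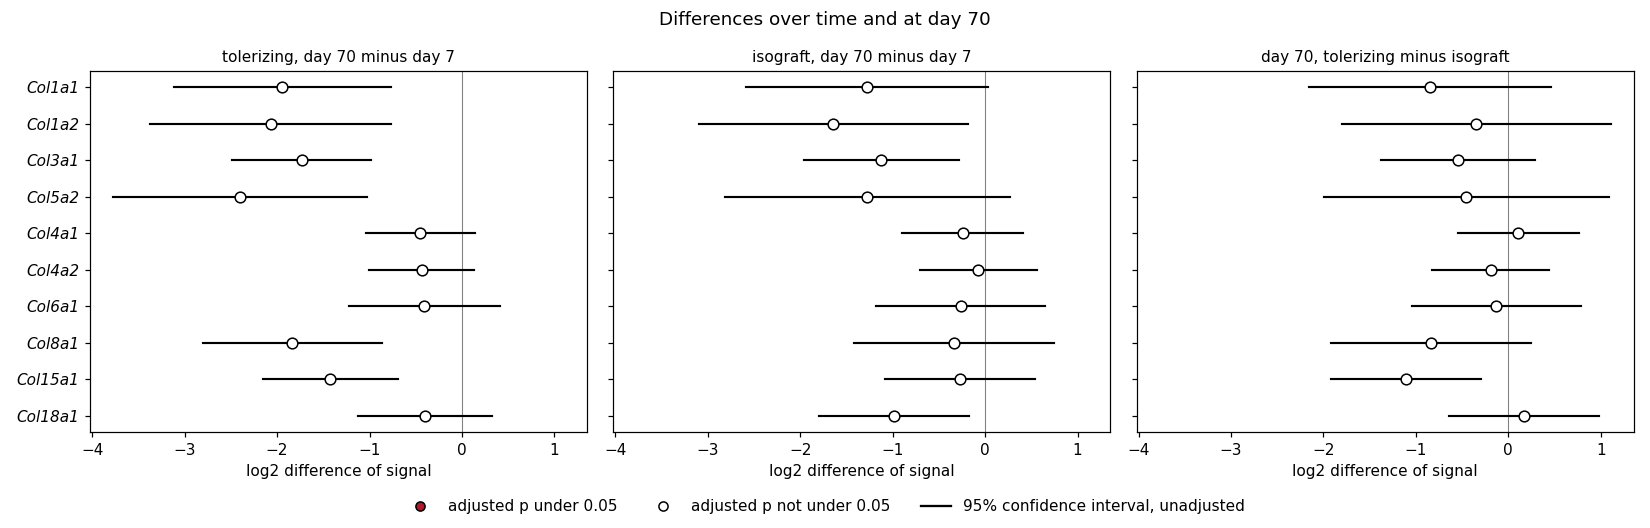
Log2 differences of the 10 collagen genes with 95% confidence intervals, for day 70 minus day 7 in tolerizing hearts and in isografts, and for tolerizing minus isograft hearts at day 70. No point passed at an adjusted p under 0.05, and the 4 fibrillar genes stood between -2.40 and -1.12 over time in both kinds of graft.

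Whether the time difference depended on the kind of graft was tested as an interaction, in which 0% of all probe sets and 0 of the 10 genes passed by limma. At an unadjusted p under 0.05 there were 2 of the 10, Col15a1 and Col8a1, against 3.93% of all probe sets. These became 0 of 10 when any of 6 arrays was left out, namely tolerizing replicates 1 and 2 of day 70, isograft replicate 2 of day 70, tolerizing replicates 2 and 3 of day 7 and isograft replicate 2 of day 7. They were also 0 under median scaling, with no filter on dim probe sets, with no intensity trend and with the beta-actin covariate. Their interactions were log2 -1.15 (SE 0.51) and -1.50 (SE 0.67), each with an adjusted p of 1. For the fibrillar genes the interactions ran from -1.13 to -0.42 with standard errors of 0.52 to 0.96.

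The mean of the 2 time differences, a contrast chosen after the values were seen, gave the 10 genes a median of -0.97, against -0.01 over all probe sets. By limma 0 of 10 genes passed, as did 0% of all probe sets. At an unadjusted p under 0.05 there were 7 of the 10 genes, against 7.78%. For 3 genes, Col1a1, Col1a2 and Col3a1, all 5 day-70 arrays lay below all 6 day-7 arrays of the same kinds of graft, against 0.5% of all probe sets. This held by their brightest probe sets and by the dimmer 161984_f_at of Col3a1. By the dimmer 103709_at of Col1a1 and 161156_r_at of Col1a2 the days overlapped, at log2 differences of -0.65 and 0.12. They also overlapped by 102990_at of Col3a1, at -1.65. Col3a1 stood at -1.43 (SE 0.26, adjusted p = 0.194) and was number 5 of all probe sets by p. Col1a2 stood at -1.86 (SE 0.45), Col5a2 at -1.84 (SE 0.48) and Col1a1 at -1.61 (SE 0.41), against -0.35 (SE 0.20) for Col4a1 and -0.25 (SE 0.20) for Col4a2. The difference between the fibrillar and the collagen IV genes was not tested.

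**Figure D4:**
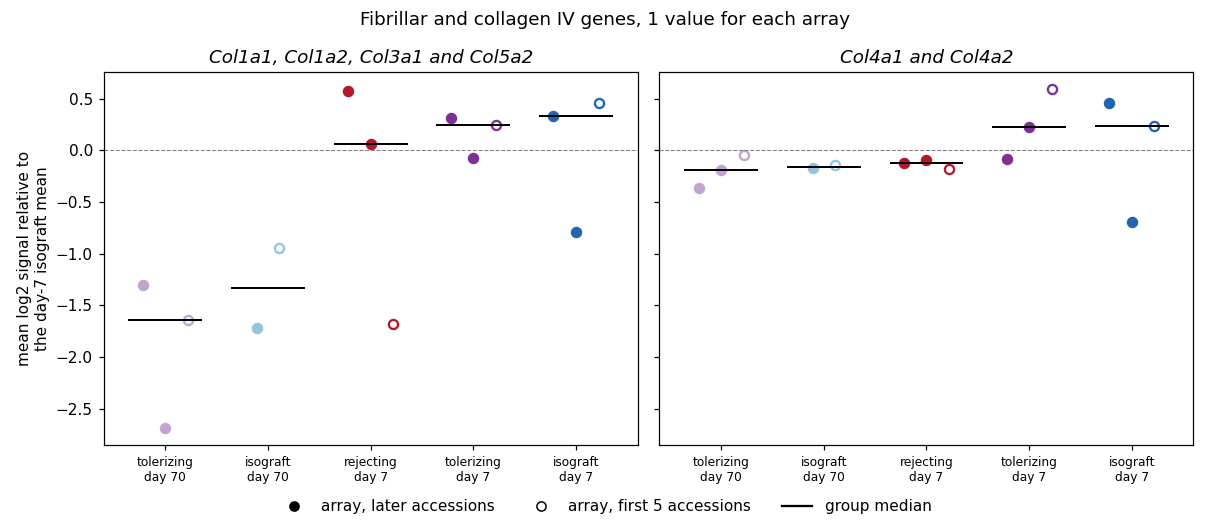
Mean log2 signal of the 4 fibrillar genes (left) and of Col4a1 and Col4a2 (right) on each array, relative to the mean of the day-7 isografts. Open points are arrays of the first accession run and bars are group medians. Fibrillar values ran from -2.69 to -0.94 in the day-70 hearts, and the collagen IV values from -0.37 to -0.04 in the same hearts.

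Per array, the fibrillar genes lay at -1.30, -2.69 and -1.64 in tolerizing and -1.72 and -0.94 in isograft hearts at day 70, on the log2 scale relative to the mean of the day-7 isografts. At day 7 they lay at 0.57, 0.06 and -1.68 in rejecting hearts, 0.31, -0.08 and 0.24 in tolerizing hearts, and 0.33, -0.79 and 0.46 in isografts. The collagen IV genes on the same scale lay between -0.37 and -0.04 in all 5 day-70 hearts and between -0.18 and -0.09 in the rejecting hearts. The third rejecting heart was thus low for the fibrillar genes and not for collagen IV, while the second day-7 isograft was low for both, at -0.79 and -0.70.

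The genes whose profiles lay nearest to the mean of the 4 fibrillar genes were found by the distance of centred log2 profiles. Candidates were the 6475 probe sets of other named genes that exceeded the floor on all 14 arrays. The distances describe these arrays and carry no test. Sparc, a collagen-binding matrix protein, was nearest, at a root mean square distance of 0.29 on the log2 scale. A dimmer probe set of Col5a1, which encodes a partner chain of Col5a2, followed at 0.41, then Ccn4 at 0.44, Csrp2 at 0.44 and Gpx7 at 0.49. The median probe set lay at 1.05. The search ran over single probe sets, whether or not they were their gene's brightest. Sparc gave 564.8, 281.7 and 443.9 in tolerizing and 443.4 and 662 in isograft hearts at day 70. At day 7 it gave 1358.5, 906 and 426.5 in rejecting hearts, 1161.2, 1262.9 and 1361.8 in tolerizing hearts, and 1714.5, 702.1 and 2061 in isografts. Nearest to the collagen IV profile, which itself moved little, were Tax1bp3 at 0.18, Ccdc93 at 0.19, Des at 0.20, Ccdc88a at 0.22 and Zfp598 at 0.22, against a median of 0.51.

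Over time no gene of the neighbouring lists passed by limma in either kind of graft. Of 14 synthesis and crosslinking genes, 10 had every tolerizing array of day 70 below every one of day 7, against 8.61% of all probe sets. An unadjusted p under 0.05 by limma was reached by 3 of the 14, against 6.2%. Lox, the enzyme that crosslinks collagen, stood lowest at log2 -2.90 (SE 0.76, adjusted p = 0.341), and Serpinh1, the chaperone of procollagen, at -1.01 (SE 0.32, adjusted p = 0.476). Of 16 other collagens, 6 showed that pattern and 3 had an unadjusted p under 0.05 (the same shares of all probe sets apply), Col11a1 at -1.36 (SE 0.46), Col4a5 at -0.79 (SE 0.27) and Col5a1 at -0.68 (SE 0.30) by its brightest probe set, which is not the one nearest to the fibrillar profile. In isografts Mmp14, a membrane-bound collagenase, stood at -1.35 (SE 0.28, adjusted p = 0.394) and Col14a1 at -2.10 (SE 0.60, adjusted p = 0.738). The summed fibroblast markers were 584.2 to 772.8 in tolerizing hearts at day 70 and 818.7 to 1105.4 at day 7. In isografts they were 719.7 and 920.9 at day 70 and 833.5 to 1190.8 at day 7. Their part in the collagen differences was not tested. The ratio of 3′ to 5′ beta-actin signal, a measure of RNA integrity, was 1.24 to 1.69 in tolerizing hearts at day 70 and 1.09 to 1.37 at day 7. In that comparison 6 of the 10 genes had an unadjusted p under 0.05 by limma with and without it as a covariate. At day 7 the ratio was 1.26 to 1.61 in rejecting and 1.52 to 1.98 in isograft hearts. With the covariate, 1 of the 10 genes in place of 3 had such a p in rejecting against isograft hearts. Against tolerizing hearts 2 did in place of 3. In tolerizing against isograft hearts at day 7, 8 probe sets passed in place of 176.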

How the data were processed

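Each of 14 hearts was measured on 1 array. The authors deposited linear intensity values for 12488 probe sets. No label or header names the software or scaling behind them. The trimmed mean of the deposited intensity ran from 100.058 to 100.071 over the arrays, so no scaling was added.

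After removal of 66 control probe sets, values below 11, which is the 25th percentile, were raised to 11 and log2 was taken. Tested were 10395 probe sets, of 7366 genes, that exceeded this floor on 3 or more arrays. The test was limma 3.58.1 under R 4.3.3, using lmFit and eBayes with an intensity trend. All 14 arrays of the 5 groups entered 1 fit without covariates, leaving 9 residual and 4.45 prior degrees of freedom. It gave 6 comparisons of 2 groups, 1 interaction and 1 contrast added after the values were seen. P-values are two-sided, were adjusted by Benjamini-Hochberg within each comparison, and were called below 0.05. Folds are antilogs of the log2 differences. Precision is limited by the number of arrays.

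The platform annotation gave 1 gene symbol to 10833 probe sets, several to 396 and none to 1193, and outdated symbols were replaced through RefSeq gene IDs. The members and lists were chosen with earlier results of these data known. All 10 genes are named in every comparison, with up to 4 called genes of each list and the 5 genes nearest in profile. Some list genes that did not pass are named beside their counts, and these were chosen after their values were seen. The test was tried on simulated data.

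Replicate numbers come from the titles. Deviations from the group means correlated between same-numbered arrays by 0.25 to 0.34 in the 3 pairs of tolerizing hearts over time. All were over 0.1, so by the rule used the numbers were taken to pair these hearts. Same-numbered tolerizing hearts of the 2 days also lie in the same accession run, so pairing and run cannot be told apart. In pairs with day-70 isografts, whose replicate 2 is the first-run array, the correlations ran from -0.18 to -0.06. Over all 16 pairs of the 6 comparisons the correlations ran from -0.18 to 0.34. Alternatives were other scalings, floors, filters and spreads, blocks for replicate number and accession run, a beta-actin covariate, averaging all probe sets of a gene, and leaving out each array.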

Additional observations from a re-analysis of the deposited data

How the results depend on the processing

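Of 1760 values of the 10 collagen genes under alternatives, 1753 kept their side of the threshold, 6 were newly called, 1 was no longer called, and no called value changed sign. Col8a1 passed in rejecting hearts against isografts under 21 of 21 alternatives (log2 -2.73 to -1.90) and against tolerizing hearts under 20 of 21 (log2 -3.13 to -2.49). The exception was the fit of those 2 groups alone, with 0 collagen genes called in place of 1. It has fewer arrays, and Col8a1 stood at adjusted p = 0.109. In rejecting hearts against isografts, leaving out 1 array in turn gave 1 to 2 collagen genes, the second being Col15a1 without the second day-7 isograft. In tolerizing hearts over time, array weights gave 5 collagen genes in place of 0, and the cause was not tested. With the replicate block the count of collagen genes was 0 in that comparison (12 probe sets in all, 4 without it) and changed in no other, and outside it the numbers do not pair the hearts by the rule used. Where a dim probe set is near the floor, its differences are understated.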
